A study of Mus musculus with 6 samples.

Results

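The cytosolic ribosomal protein genes encode the proteins that, with ribosomal RNA, make up the large and small subunits of the ribosomes in the cytosol. They were taken from the gene symbols alone, as the Rpl and Rps symbols with a number and at most 1 letter a, x or y, Rplp0 to Rplp2, Rpsa, and the paralogs Rpl22l1, Rpl3l, Rpl7l1, Rps27l and Rps27rt, leaving out kinases of the Rps6k family and annotated pseudogenes. This gave 81 of the 15319 genes in the table, 49 of the large and 32 of the small subunit, and each of the 81 had at least 1 count. RNA-Seq had measured Tregs, the regulatory T cells that restrain immune responses, in 3 WT and 3 cKO libraries made from tumors in the lung. The WT genotype was Foxp3Yfp-Cre and the cKO genotype was Xrcc6flox/floxFoxp3Yfp-Cre, so that both carried the Cre recombinase expressed from the Foxp3 locus and the cells of cKO mice that express Foxp3, in the tumor and elsewhere, also lost Xrcc6, the gene of the DNA repair protein Ku70. All mice were 8 to 10 weeks old when they received LLC cells, a mouse lung carcinoma line, through the tail vein, and tumors were taken at 21 days, so no library came from a mouse without a tumor. The labels do not say whether each library came from 1 mouse or from several, and p-values therefore measure only the spread between these libraries.

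Ribosomal proteins are made in near-equal amounts because each ribosome holds 1 copy of most of them, the acidic stalk proteins being the known exception. Their mRNAs are short and abundant, and most begin with a run of pyrimidines, the terminal oligopyrimidine (TOP) tract, through which mTORC1 and the RNA-binding protein Larp1 control their translation and stability. T cells raise the output of these genes when they leave rest, grow and divide, and Tregs depend on mTORC1 for part of their suppressive function.

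The libraries held 19032620 to 23159815 counts. WT_2 stood apart from the other libraries, with 11513 genes counted against 14442 to 14737 in each of the others. The 7 genes listed for Tregs, Foxp3, Il2ra, Ctla4, Ikzf2, Tnfrsf18 and the more general T cell genes Cd4 and Cd3e, were present in every library. They summed to 4170 to 5536 CPM in WT and 4299 to 4703 CPM in cKO, CPM being counts scaled to library size, here with TMM factors. Foxp3 alone was at 241, 150.4 and 208 CPM in WT_1, WT_2 and WT_3 and 282, 189 and 242 CPM in cKO_1, cKO_2 and cKO_3. The targeted Xrcc6 was at 20.9, 63.1 and 23.8 CPM in WT_1, WT_2 and WT_3 and at 3.51 to 5.24 CPM in cKO. Among markers of other cell types, the summed levels were 159 to 639 CPM in WT and 204 to 869 CPM in cKO for macrophages and 1.39 to 64.9 against 1.48 to 25.9 CPM for B and plasma cells, both highest within WT in WT_2. The macrophage sum was nearly as high in WT_3, at 620 CPM. There Lyz2, Csf1r and C1qa were higher than in WT_2, and Adgre1 and Cd68 were lower. The 5 red blood cell markers summed to 0 to 9.75 CPM in WT and 10.9 to 36.1 CPM in cKO, lowest in WT_2, where all 5 were at 0, and highest in cKO_2. The 3 stroma markers were all at 0 in WT_2 too. So were 2 markers each of neutrophils, lung epithelium, CD8 T and NK cells and endothelium, and 1 of B and plasma cells. WT_2 and cKO_2 were also at either end for the ribosomal protein genes, but the order between differed. The red blood cell sum was 0.717 CPM in WT_1 and 10.9 CPM in cKO_1, while the ribosomal protein sum was lower in cKO_1 than in WT_1. The sums of the other lists overlapped between the groups, at 9.94 to 20.5 against 14.6 to 18.1 CPM for neutrophils, 34.4 to 99.4 against 36.1 to 67.2 CPM for lung epithelium, 5.22 to 21.0 against 18.5 to 20.1 CPM for CD8 T and NK cells, 0 to 2.45 against 1.15 to 2.80 CPM for stroma and 60.4 to 79.8 against 69.4 to 93.7 CPM for endothelium. Within the neutrophil list, S100a9 was at 0 to 0.208 CPM in WT and 1.11 to 1.91 CPM in cKO. Retnlg was at 0 CPM in WT and 0.625 to 1.51 CPM in cKO. The neutrophil genes S100a8, Csf3r and Cxcr2 overlapped between the groups. The part of these cells in the ribosomal protein levels was not tested. In bulk libraries of this kind, fewer cells of a type and less RNA per cell cannot be told apart.

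The start sites of the genes are shown first because the pyrimidine run there is the element that the family is known for. Each stretch below covers 40 bases before to 20 bases from the start in RefSeq's GRCm38.p6 annotation, written 5′ to 3′, and capitals mark the longest run of C and T that begins with C. Rps12 and Rps15a were, with Rplp1, the genes furthest down in WT_2, Rpl35 and Rpl4 were among those least down, Rpl10 and Rps3 have no long run in the window, and Rpl7l1 was the only gene that was higher in WT_2 than in every other library.
Rps12, chr10:23787190-23787249, minus strand: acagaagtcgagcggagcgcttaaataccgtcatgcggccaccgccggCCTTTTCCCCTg
Rps15a, chr7:118116128-118116187, minus strand: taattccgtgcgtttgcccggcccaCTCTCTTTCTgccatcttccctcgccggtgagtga
Rpl35, chr2:39005112-39005171, minus strand: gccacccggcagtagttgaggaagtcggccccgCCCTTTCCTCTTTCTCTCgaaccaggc
Rpl4, chr9:64173347-64173406, plus strand: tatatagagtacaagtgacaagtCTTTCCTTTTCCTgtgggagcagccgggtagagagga
Rpl10, chrX:74270776-74270835, plus strand: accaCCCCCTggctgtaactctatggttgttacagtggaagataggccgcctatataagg
Rps3, chr7:99483690-99483749, minus strand: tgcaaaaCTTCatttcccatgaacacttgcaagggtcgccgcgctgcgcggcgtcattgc
Rpl7l1, chr17:46782637-46782696, minus strand: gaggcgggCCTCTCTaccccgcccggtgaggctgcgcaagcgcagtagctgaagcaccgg
RefSeq held a start for 61 of the 81 genes. A run of at least 8 was present in this window in 34 of the 61 (55.7%), and in 23.1% of the 12030 genes of the table with such an entry. A run is a description of the letters and depends on where the annotation sets the start, so a run that lies some bases away from the first base was counted as well.

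Ribosomal protein mRNAs made up a large and uneven part of the libraries. Their counts were 13.3%, 6.18% and 13.2% of all counts in WT_1, WT_2 and WT_3 and 10.95%, 15.6% and 14.3% in cKO_1, cKO_2 and cKO_3. After TMM scaling the summed level of the 81 genes was 137552, 56292.5 and 130570.0 CPM in the WT libraries and 105530.0, 168001 and 147687 CPM in the cKO libraries. WT_2 was the lowest of the 6, at 0.42 of the mean of the other WT libraries, and cKO_1 was below and cKO_2 and cKO_3 above both other WT libraries. The group means were 108138 ± 45035 CPM in WT and 140406 ± 31866 CPM in cKO (SD, n = 3), a cKO to WT ratio of 1.298 that became 1.05 without WT_2. No p was computed for a sum over genes chosen with earlier results known.

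**Figure D1:**
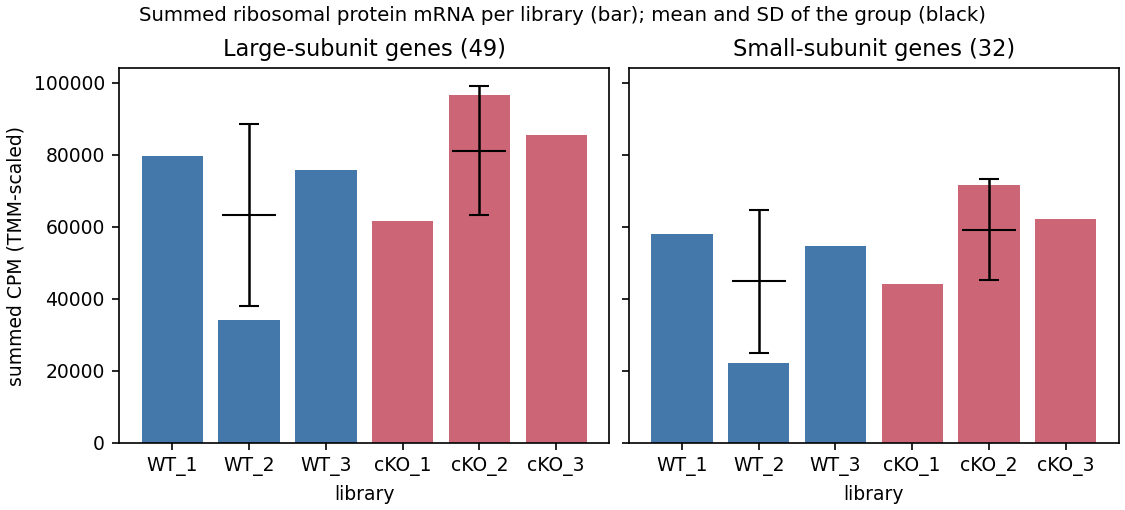
Summed CPM of the 49 large-subunit (left) and 32 small-subunit (right) ribosomal protein genes in each library, with WT in blue and cKO in red, and black marks give the mean and SD of the 3 libraries of a group. WT_2 is lowest in both panels, at 34228.5 and 22064 CPM, and cKO_2 is highest, at 96488 and 71514 CPM.

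Both subunits moved together. The large-subunit genes summed to 79639, 34228.5 and 75848 CPM in WT and 61486, 96488 and 85571 CPM in cKO. The small-subunit genes summed to 57913, 22064 and 54722 CPM in WT and 44043.5, 71514 and 62116 CPM in cKO. The ratio of the large to the small sum was therefore narrow, at 1.35 to 1.396 in the 5 libraries other than WT_2, and was 1.55 in WT_2, where the small-subunit sum was at 0.392 and the large-subunit sum at 0.44 of the mean of WT_1 and WT_3.

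Gene by gene, the libraries fell in nearly the same order. WT_2 was the lowest library in 79 of the 81 genes, compared with 42.7% of all 15315 genes with a count, and cKO_2 was the highest in 73 of the 81, compared with 12.1% of all genes. The 2 genes in which WT_2 was not lowest were Rpl7l1 and Rpl3l. For the 80 ribosomal protein genes with a mean of at least 10 CPM, each library was set against the mean of WT_1 and WT_3 on the log2 scale. The median was -1.28 in WT_2, -0.37 in cKO_1, 0.34 in cKO_2 and 0.12 in cKO_3, while the medians of all 8447 genes at that level lay between -0.0056 and 0.021 in these libraries. WT_2 was below the mean of WT_1 and WT_3 in 79 of the 80 genes and below 50% of it in 62 of the 81, cKO_1 was below it in 76 of the 80, and cKO_2 was above it in 79 of the 80. The full order, WT_2 below cKO_1, cKO_1 below WT_1 and WT_3, and those below cKO_2, held in 70 of the 80 genes and in 5.75% of all genes at that level. WT_1 and WT_3 lay close to each other in these genes, the median of WT_1 being 0.043 above their mean.

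**Figure D2:**
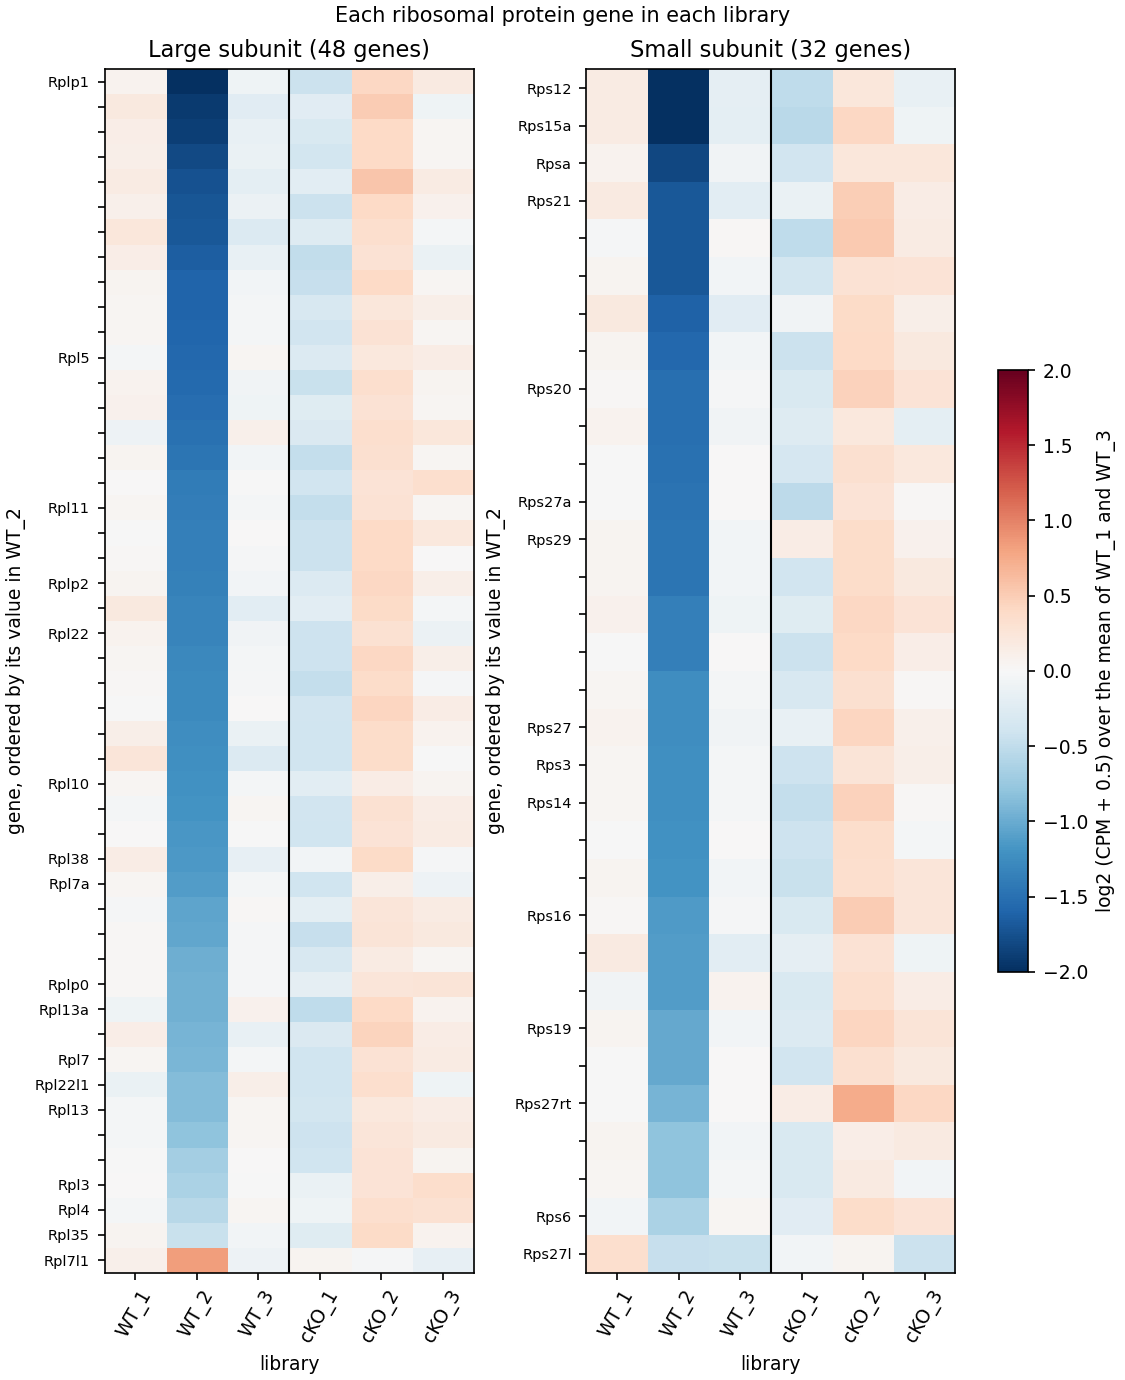
Level of each of the 80 ribosomal protein genes with a mean of at least 10 CPM in each library, as log2 (CPM + 0.5) relative to the mean of WT_1 and WT_3, with genes ordered within each subunit by their value in WT_2 and names given for the genes described in the text. The WT_2 column is blue in every row but that of Rpl7l1, cKO_1 is below 0 in 76 rows, and cKO_2 is above 0 in 79.

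The size of the WT_2 deficit differed between genes. It was greatest in Rps12, a small-subunit protein, at -2.26 on the log2 scale, followed by Rps15a at -2.10 and the stalk gene Rplp1 at -2.04. Rpsa, a small-subunit protein also known as the laminin receptor, was at -1.82. The smallest deficits were in Rpl35 (-0.45), Rps27l (-0.45), Rpl4 (-0.56), Rps6 (-0.63) and Rpl3 (-0.63). Rpl7l1, an assembly factor related to Rpl7, was higher in WT_2 by 0.83. The genes were therefore not lowered by 1 common factor in that library.

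Transcript length was measured beside this result, since ribosomal protein mRNAs are short. Lengths were those of the principal GENCODE transcript, which for some genes, such as Rps15a (5179 nt) and Rps20 (3706 nt), is much longer than the usual mRNA. The 26 ribosomal protein genes under 700 nt had a median log2 ratio of WT_2 to the mean of WT_1 and WT_3 of -1.48, the 35 from 700 to under 1200 nt of -1.22 and the 19 of at least 1200 nt of -1.27. Genes other than the ribosomal protein genes, with a mean of at least 50 CPM, were at -1.10 under 700 nt (72 genes), -0.56 from 700 to under 1200 nt (281 genes) and 0.056 at 1200 nt or more (3333 genes). Other short mRNAs were thus lower in WT_2 as well. In the class of longest annotated transcripts the ribosomal protein genes stood furthest from other genes. That class takes in genes such as Rps15a and Rps20, so it is not a class of long ribosomal protein mRNAs, and the contrast there does not separate the deficit from length. In cKO_1 the ribosomal protein genes were at -0.27, -0.39 and -0.38 in the 3 classes and other genes at -0.41, -0.30 and 0.03, so that other genes under 1200 nt were about as low there as the ribosomal protein genes. In cKO_2 the ribosomal protein genes were at 0.39, 0.32 and 0.30, above the other genes at 0.14, 0.097 and 0.025. In cKO_3 they were at 0.052, 0.11 and 0.16, while other genes were at -0.20, -0.11 and 0.023. The part of transcript length in the library differences was not tested beyond these values. Over the 80 genes, the WT_2 ratio and the annotated length had a Spearman correlation of 0.19, a description over genes of the same libraries with the same limit of the annotated lengths.

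**Figure D3:**
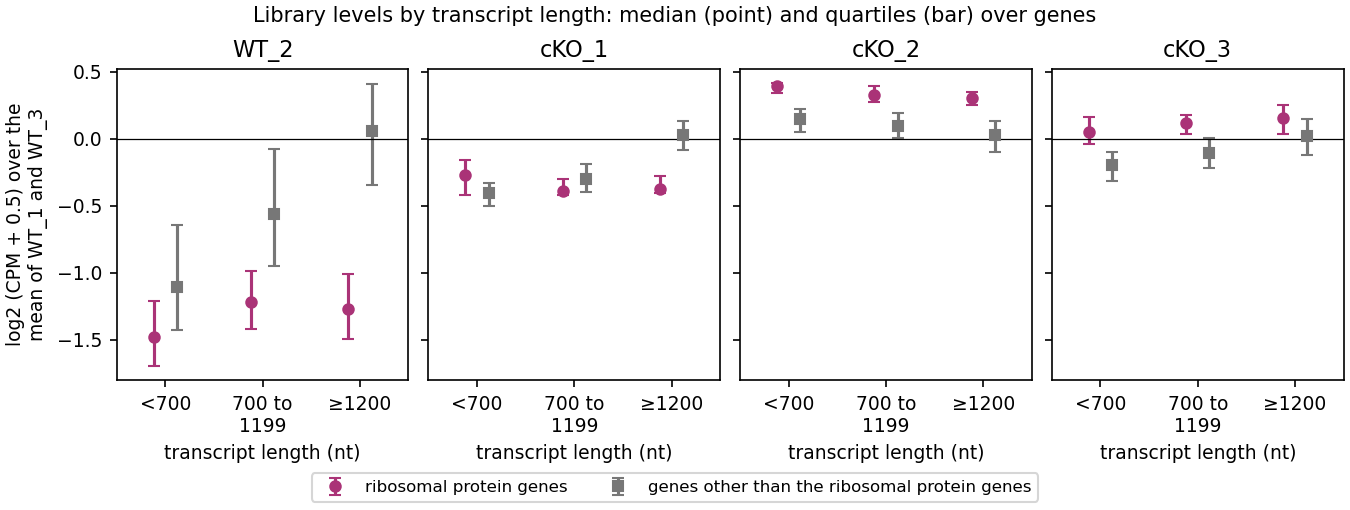
Level in WT_2, cKO_1, cKO_2 and cKO_3 relative to the mean of WT_1 and WT_3, as log2 (CPM + 0.5), in 3 classes of annotated transcript length in nucleotides. The annotated length of some ribosomal protein genes is much longer than the usual mRNA. Circles are ribosomal protein genes, squares are other genes with a mean of at least 50 CPM, and bars span the quartiles over genes. Other genes rise from -1.10 in the short class to 0.056 in the long class in WT_2, while the ribosomal protein genes stay between -1.48 and -1.22.

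The comparison of cKO with WT asked whether the loss of Ku70 in Tregs changed the mRNA of these genes. With all 6 libraries, 79 of the 81 genes had a positive log2 fold change, compared with 54.5% of all genes tested, and the median was 0.38, compared with 0.044 over all genes. None of the 81 passed an adjusted p of 0.05 in edgeR's quasi-likelihood test, where 0.0% of all 15315 genes passed in either direction. None of the 81 passed in DESeq2, where over all genes 1 was higher and 1 lower at that limit. At an unadjusted p under 0.05, 1 ribosomal protein gene, Rps27rt, was higher in cKO, compared with 0.94% of all genes, and 0 were lower, compared with 0.868%. Every cKO library lay above every WT library in 2 of the 81, Rps27rt and Rps29, against 5.01% of all genes, and every cKO library lay below every WT library in 0 of the 81, against 3.23%. The shares of ribosomal protein genes past these limits were thus no higher than those of all genes, apart from 1.23% against 0.94% at the unadjusted limit, which is 1 gene. Adjusted p-values of the 81 genes were 0.984 or more. The 81 genes share their libraries and move together, so the 79 positive values are not 79 separate observations.

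Without WT_2 the excess was mostly gone. In that comparison of 3 cKO with 2 WT libraries, 66 of the 81 genes had a positive log2 fold change, compared with 48.6% of all genes, and the median was 0.055, compared with -0.0089 over all 15302 genes. The median was -0.092 when cKO_2 was also left out, with 12 genes positive and 69 negative, and 0.24 when cKO_1 was left out instead, with 78 positive and 3 negative. The sign of the family's difference without WT_2 therefore rested on single cKO libraries. Rps27rt was again the only gene of the 81 higher at an unadjusted p under 0.05 (1.52% of all genes), and 0 were lower (1.5% of all genes). Of the 81, 0 passed an adjusted p of 0.05 in edgeR or DESeq2. Over all genes 0.00654% did in edgeR, which is 1 gene, Xrcc6, and in DESeq2 1 was higher and 2 were lower. Rps27rt and Rps29 were the 2 genes in which every cKO library was above both WT libraries (8.48% of all genes), and in 0 was every cKO library below both (7.53%).

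**Figure D4:**
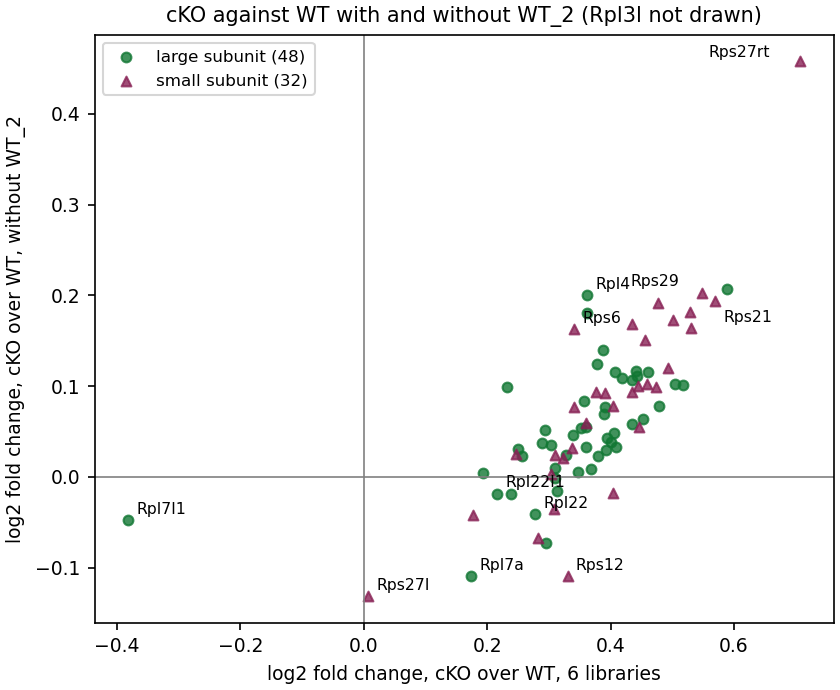
Log2 fold change of cKO over WT with all 6 libraries (horizontal) and without WT_2 (vertical) for 80 ribosomal protein genes, circles for the large and triangles for the small subunit, without Rpl3l, which is near the counting limit. With all libraries nearly all points lie right of 0 around 0.38, without WT_2 they scatter around 0.055, and Rps27rt lies furthest from 0 on both axes among the positive values.

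The stalk of the large subunit, through which elongation factors bind the ribosome, is formed by Rplp0 with Rplp1 and Rplp2. Rplp0 was at 4321, 2177 and 4185 CPM in WT_1, WT_2 and WT_3 and 3751, 5031 and 5108 CPM in cKO_1, cKO_2 and cKO_3. Rplp1 was at 1896, 438 and 1699 CPM in WT_1, WT_2 and WT_3 and 1339, 2393 and 2038 CPM in cKO_1, cKO_2 and cKO_3. Rplp2 was at 1029.5, 390.4 and 961 CPM in WT_1, WT_2 and WT_3 and 826, 1323 and 1083 CPM in cKO_1, cKO_2 and cKO_3. In all of them WT_2 was the lowest library and the remaining libraries of the groups overlapped. Rplp0 had a cKO to WT log2 fold change of 0.38 ± 0.339 (SE) with all libraries and 0.12 ± 0.236 without WT_2. Rplp1 had a cKO to WT log2 fold change of 0.52 ± 0.521 (SE) with all libraries and 0.10 ± 0.267 without WT_2. Per kilobase of transcript, the mean level over the libraries other than WT_2 was 3754 CPM for Rplp1, 3298 CPM for Rplp0 and 1083 CPM for Rplp2.

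Rpl5 and Rpl11 bind the 5S ribosomal RNA and, when ribosome assembly is disturbed, hold back Mdm2, the protein that degrades p53. Rpl5 was at 1092, 378 and 1151 CPM in WT_1, WT_2 and WT_3 and 930.4, 1302 and 1242 CPM in cKO_1, cKO_2 and cKO_3. Rpl11 was at 1689, 631 and 1599.7 CPM in WT_1, WT_2 and WT_3 and 1179, 2009 and 1682 CPM in cKO_1, cKO_2 and cKO_3. Apart from WT_2, the values of cKO lay on both sides of those of WT. Rpl5 had a cKO to WT log2 fold change of 0.41 ± 0.409 (SE) with all libraries and 0.048 ± 0.209 without WT_2. Rpl11 had a cKO to WT log2 fold change of 0.31 ± 0.4 (SE) with all libraries and -0.016 ± 0.251 without WT_2. Rpl5 overlaps exons of Fam69a on the other strand, and whether counting used strand is not given in the sources used here.

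Rpsa is needed for the last steps of small-subunit assembly. It was at 4322, 1171 and 3949 CPM in WT_1, WT_2 and WT_3 and 3186, 4829 and 4852 CPM in cKO_1, cKO_2 and cKO_3. Rps19, the gene most often mutated in Diamond-Blackfan anemia, was at 1923, 908 and 1779.7 CPM in WT_1, WT_2 and WT_3 and 1528, 2497 and 2206 CPM in cKO_1, cKO_2 and cKO_3. Rps14, whose loss underlies the anemia of the 5q- syndrome, was at 1686, 703 and 1595 CPM in WT_1, WT_2 and WT_3 and 1181, 2266 and 1668 CPM in cKO_1, cKO_2 and cKO_3. Rps3, a small-subunit protein that also has a part in DNA repair, was at 2588, 1079.5 and 2451 CPM in WT_1, WT_2 and WT_3 and 1898, 3022 and 2736 CPM in cKO_1, cKO_2 and cKO_3. These 4 genes showed the order of the family, with WT_2 lowest and cKO_1 below the other WT libraries. Their log2 fold changes without WT_2 were 0.055 ± 0.258 (SE) for Rpsa, 0.17 ± 0.249 for Rps19, 0.059 ± 0.278 for Rps14 and 0.021 ± 0.248 for Rps3.

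Rpl38, a large-subunit protein required for the translation of some Hox mRNAs, was at 257, 104 and 206 CPM in WT_1, WT_2 and WT_3 and 222, 302 and 228 CPM in cKO_1, cKO_2 and cKO_3. Rpl10, which is added last to the large subunit, was at 3367, 1415 and 3163 CPM in WT_1, WT_2 and WT_3 and 2826, 3633 and 3393 CPM in cKO_1, cKO_2 and cKO_3. Rpl13a, which can leave the ribosome to silence inflammatory mRNAs in myeloid cells, was at 2468, 1352 and 2782 CPM in WT_1, WT_2 and WT_3 and 1841, 3467 and 2755 CPM in cKO_1, cKO_2 and cKO_3. Rps27a, which is made as a fusion to ubiquitin, was at 2676, 967 and 2700.2 CPM in WT_1, WT_2 and WT_3 and 1873, 3256 and 2726 CPM in cKO_1, cKO_2 and cKO_3. Their log2 fold changes without WT_2 lay between -0.035 for Rps27a and 0.12 for Rpl38. Exons of Rpl13a overlap Gm45713 and those of Rps27a overlap Clhc1 in the annotation.

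Rps6, the substrate of the S6 kinases downstream of mTORC1, was listed at an unusually low level for a core ribosomal protein. It was at 104, 69.4 and 111 CPM in WT_1, WT_2 and WT_3 and 91.6, 138 and 130.0 CPM in cKO_1, cKO_2 and cKO_3. Per kilobase of transcript this was 131 CPM, which ranked 79 of the 81, while 61 of the 81 genes were above 1000 CPM per kilobase. The annotation names 4 pseudogenes of Rps6, with which reads can be shared, and their part in the low value was not tested. Rps6 had a cKO to WT log2 fold change of 0.34 ± 0.233 (SE) with all libraries and 0.16 ± 0.192 without WT_2, and the adjusted p was 0.984 and 0.997 in edgeR.

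At the other end, Rps27 and Rpl13 had the highest levels per kilobase, at 6933 and 5535 CPM. Rpl13 was at 4161, 2345 and 4401 CPM in WT_1, WT_2 and WT_3 and 3308, 4956 and 4762 CPM in cKO_1, cKO_2 and cKO_3. Of the 81 genes, 79 were above 100 CPM per kilobase, and the other 2 were the paralogs Rpl7l1 and Rpl3l, at 15.8 and 0.0543 CPM per kilobase. Named pseudogenes exist for 60 of the 81 genes, up to 24 for a single gene, and exons of 18 overlap another gene. A snoRNA gene lies within 28 of the 81, outside the exons of the principal transcript. Levels of single genes thus carry an uncertainty from read assignment that the libraries do not show.

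The genes with the smallest p in either direction were followed next. Rps29, a small-subunit zinc-binding protein, was at 957, 334 and 884 CPM in WT_1, WT_2 and WT_3 and 1018, 1185 and 975 CPM in cKO_1, cKO_2 and cKO_3, so that every cKO library was above every WT library. Rps29 had a cKO to WT log2 fold change of 0.55 ± 0.379 (SE) with all libraries and 0.20 ± 0.183 without WT_2. An exact two-sided permutation test over libraries gave p = 0.1 with all 6 libraries, the smallest that 3 against 3 can give, and p = 0.2 without WT_2, the smallest that 3 against 2 can give. Rps21 was at 358, 96.7 and 271 CPM in WT_1, WT_2 and WT_3 and 287, 442 and 347 CPM in cKO_1, cKO_2 and cKO_3. Rpl4 was at 2312, 1614 and 2439.9 CPM in WT_1, WT_2 and WT_3 and 2251, 3002 and 2930.1 CPM in cKO_1, cKO_2 and cKO_3. In both, cKO_1 overlapped the WT libraries. Their log2 fold changes were 0.57 ± 0.435 (SE) and 0.36 ± 0.262 with all libraries and 0.19 ± 0.222 and 0.20 ± 0.219 without WT_2. On the lower side without WT_2 were the log2 fold changes of Rpl7a at -0.11 ± 0.207 (SE) and Rps12 at -0.11 ± 0.247, neither of them past an unadjusted p of 0.05. Rps12 was at 1086, 202 and 857 CPM in WT_1, WT_2 and WT_3 and 681, 1136 and 881 CPM in cKO_1, cKO_2 and cKO_3, and its 24 named pseudogenes can share its reads.

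Several ribosomal proteins have a paralog that can take their place in the ribosome or act outside it. Rps27 has the paralog Rps27l, a p53 target, and the retrogene Rps27rt, and their comparison turned on sequence. Rps27 (chr3:90212522-90213651, minus strand, GRCm38) and Rps27rt (chr9:114982366-114982739, minus strand) have the same coding sequence of 255 bases, with 0 differences in GENCODE vM21. It is shown once because the only nominal difference of the family is in Rps27rt.
Rps27 and Rps27rt, coding sequence: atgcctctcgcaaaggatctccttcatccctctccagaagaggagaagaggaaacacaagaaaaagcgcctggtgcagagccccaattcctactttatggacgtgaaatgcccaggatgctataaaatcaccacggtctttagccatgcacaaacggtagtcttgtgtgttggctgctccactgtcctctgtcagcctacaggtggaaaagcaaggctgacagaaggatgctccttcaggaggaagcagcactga
The annotated transcripts, of 345 and 374 nt, share an unbroken run of 341 bases, so that a read of either gene fits both except at the ends. Rps27l, in contrast, is identical to Rps27 at 194 of 255 coding bases (76.1%), and its transcript shares no run longer than 11 bases with that of Rps27. The windows around the 2 start sites of Rps27 and Rps27rt differ, with a run of 9 pyrimidines in Rps27 and of 6 in Rps27rt.
Rps27, chr3:90213629-90213688, minus strand: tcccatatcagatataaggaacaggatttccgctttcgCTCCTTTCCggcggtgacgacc
Rps27rt, chr9:114982720-114982779, minus strand: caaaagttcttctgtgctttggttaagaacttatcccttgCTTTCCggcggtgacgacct

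Rps27 was at 2354, 953 and 2138 CPM in WT_1, WT_2 and WT_3 and 2019.6, 3039 and 2409 CPM in cKO_1, cKO_2 and cKO_3. Rps27rt was at 50.5, 26.4 and 50.9 CPM in WT_1, WT_2 and WT_3 and 55.96, 84.9 and 67.6 CPM in cKO_1, cKO_2 and cKO_3. Rps27rt was thus higher in every cKO library than in every WT library, with means of 42.6 ± 14.03 CPM in WT and 69.5 ± 14.6 CPM in cKO (SD, n = 3). Rps27rt had a cKO to WT log2 fold change of 0.71 ± 0.284 (SE) with all libraries and 0.46 ± 0.186 without WT_2, with adjusted p-values of 0.984 and 0.997 in edgeR, and only before adjustment was p under 0.05. The exact permutation p was 0.1 with all libraries and 0.2 without WT_2. As a share of the Rps27 counts in the same library, Rps27rt was 2.14%, 2.77% and 2.38% in WT_1, WT_2 and WT_3 and 2.77%, 2.79% and 2.81% in cKO_1, cKO_2 and cKO_3. The share in WT_2 was close to those of cKO, and the counts of Rps27rt rest on how the counting program divided reads that fit both genes, so the difference in Rps27rt is reported as uncertain. Rps27l was at 116, 66.7 and 67.1 CPM in WT_1, WT_2 and WT_3 and 88.6, 94.7 and 67.9 CPM in cKO_1, cKO_2 and cKO_3. Its groups overlapped, and its log2 fold change was 0.0069 ± 0.254 (SE) with all libraries and -0.13 ± 0.235 without WT_2.

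Rpl22, which is needed for T cell development in the thymus and restrains its paralog, was at 325, 124 and 294 CPM in WT_1, WT_2 and WT_3 and 233, 381 and 286 CPM in cKO_1, cKO_2 and cKO_3. Rpl22l1 was at 382, 229 and 457 CPM in WT_1, WT_2 and WT_3 and 319.5, 528 and 393 CPM in cKO_1, cKO_2 and cKO_3. Per kilobase of transcript the paralog was the more abundant, at 754 against 148 CPM. Rpl22 had a cKO to WT log2 fold change of 0.28 ± 0.364 (SE) with all libraries and -0.041 ± 0.218 without WT_2. Rpl22l1 had a cKO to WT log2 fold change of 0.22 ± 0.297 (SE) with all libraries and -0.019 ± 0.229 without WT_2. Neither gene differed between the groups beyond the spread between libraries. Rpl22 and Rpl22l1 are identical at 68.7% of coding bases.

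Rpl7 was at 2161, 1123 and 2058 CPM in WT_1, WT_2 and WT_3 and 1599, 2591 and 2356 CPM in cKO_1, cKO_2 and cKO_3. Rpl7l1, which acts in ribosome assembly, was at 44.98, 74.96 and 38.98 CPM in WT_1, WT_2 and WT_3 and 43.6, 41.1 and 37.4 CPM in cKO_1, cKO_2 and cKO_3, and its highest value was in WT_2, the library in which Rpl7 was lowest. Rpl7l1 had a cKO to WT log2 fold change of -0.38 ± 0.256 (SE) with all libraries and -0.048 ± 0.137 without WT_2. Rpl3, which lies near the peptidyl transferase center, was at 2456, 1578 and 2444 CPM in WT_1, WT_2 and WT_3 and 2237, 2959.8 and 3126 CPM in cKO_1, cKO_2 and cKO_3. Rpl3 had a cKO to WT log2 fold change of 0.36 ± 0.276 (SE) with all libraries and 0.18 ± 0.225 without WT_2. Its muscle paralog Rpl3l was at 0.143, 0.094 and 0.0521 CPM in WT and 0, 0 and 0.178 CPM in cKO. At 3 counts corresponding to 0.133 to 0.156 CPM, Rpl3l was at or near the limit that a count of 0 allows in every library, and no fold is given.

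**Figure D5:**
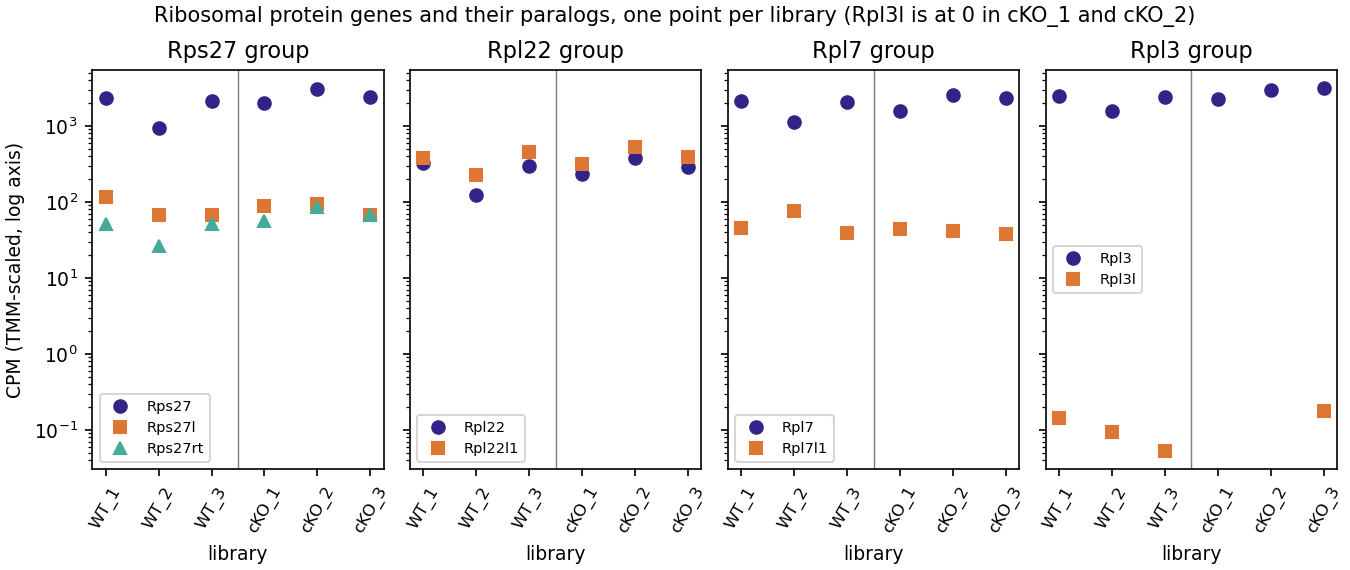
CPM on a log axis in each library for Rps27, Rpl22, Rpl7 and Rpl3 with their paralogs, 1 point per library. Rpl3l has no point in cKO_1 and cKO_2, where it was at 0. WT_2 is the lowest point of Rps27, Rpl22, Rpl7 and Rpl3, while Rpl7l1 has its highest point there, at 74.96 CPM.

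The composition of the family was then described with the family's own sum removed, as each gene's share of the ribosomal protein counts in its library. Over the 80 genes with a mean of at least 10 CPM, the log2 ratio of shares between 2 libraries had an SD of 0.124 to 0.197 for the 10 pairs of libraries other than WT_2, whether the pair was within or between genotypes, and of 0.411 to 0.499 for the 5 pairs that held WT_2. WT_2 therefore differed from the rest in composition as well as in sum. Rps12 went from 0.79% and 0.657% of the ribosomal protein counts in WT_1 and WT_3 to 0.359% in WT_2 and was at 0.645%, 0.676% and 0.597% in cKO. Shares sum to a fixed total, so a gene with an above-average loss in WT_2 raises the shares of others there.

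A pyrimidine run anywhere in the window around the annotated start did not separate the genes by their values. The 34 genes with a run of at least 8 had a median log2 ratio of WT_2 to the mean of WT_1 and WT_3 of -1.24, and the 26 with a shorter run and a mean of at least 10 CPM had -1.28. The median log2 fold changes of cKO over WT without WT_2 were 0.045 and 0.054. A missing run in this window says only that the letters are not there, and a run counted here can lie far from the start. The split therefore does not sort the genes by TOP tract.

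Other genes of translation were compared with the same measures, with the comparison's shares past an unadjusted p of 0.05 given above as the background. Median log2 ratios in WT_2 were taken over the genes of each list with a mean of at least 10 CPM. The 6 ribosomal protein genes of the table that the symbol rule leaves out, which include Fau, made as a fusion to a ubiquitin-like protein, and Rps3a1, summed to 8192, 3473 and 7817 CPM in WT_1, WT_2 and WT_3 and 6355, 10124 and 8979 CPM in cKO_1, cKO_2 and cKO_3. They followed the 81 genes, with a median log2 ratio of WT_2 to the other WT libraries of -1.37 over 5 of them, all 6 positive in both comparisons, and 0 past an unadjusted p of 0.05. The 10 genes of elongation, Tpt1 among them, several of whose mRNAs also carry TOP tracts, summed to 22623, 11178 and 21433 CPM in WT_1, WT_2 and WT_3 and 19687, 25338 and 24495 CPM in cKO_1, cKO_2 and cKO_3. Eef1a1, which brings aminoacyl-tRNA to the ribosome, was at 12218, 6051 and 11715 CPM in WT_1, WT_2 and WT_3 and 10639, 13544 and 13038 CPM in cKO_1, cKO_2 and cKO_3. Eef2, the translocase, was at 4364, 2632 and 4017 CPM in WT_1, WT_2 and WT_3 and 4373, 4845 and 5174 CPM in cKO_1, cKO_2 and cKO_3, and Tpt1, a growth-associated TOP mRNA, was at 3699.8, 1260.0 and 3576 CPM in WT_1, WT_2 and WT_3 and 2718, 4446 and 3889 CPM in cKO_1, cKO_2 and cKO_3. The median log2 ratio in WT_2 was -0.98 over 9 of the 10 elongation genes, and 0 of the 10 passed an unadjusted p of 0.05.

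Genes that make or regulate ribosomes had median log2 ratios in WT_2 nearer to 0 than the -1.28 of the ribosomal protein genes. The 50 genes of ribosomal RNA processing and assembly, led by Npm1, Ncl and Snu13, had a median log2 ratio of 0.018 in WT_2 over 49 of them, and 25 of 50 were positive and 25 negative in cKO with all libraries. Npm1, a histone chaperone of the nucleolus, was at 806, 595 and 782 CPM in WT_1, WT_2 and WT_3 and 675, 927 and 908 CPM in cKO_1, cKO_2 and cKO_3. The 6 chaperones of single ribosomal proteins, among them Tsr2, Pdcd2 and Bccip, had a median of 0.42. Of the 14 genes of mTORC1 and TOP mRNA control, among them Eif4ebp2, Larp1 and Myc, 13 reached that level, with a median of 0.05. Of the 15 genes of RNA polymerase I, among them Polr1d, Ubtf and Twistnb, 13 did, with a median of -0.36. The initiation factors were the 55 genes with symbols starting Eif, which also takes in kinases and inhibitors such as Eif2ak1 and Eif4ebp1. Over the 51 with a mean of at least 10 CPM the median was 0.032, and WT_2 was lowest in 21 and highest in 18. Eif1, which selects the start codon, was highest in WT_2, at 2922, 4478 and 3372 CPM in WT_1, WT_2 and WT_3 and 2933, 2991 and 3488 CPM in cKO_1, cKO_2 and cKO_3. Eif3f was lowest in WT_2, at 1205, 708 and 1031 CPM in WT_1, WT_2 and WT_3 and 1136, 1238 and 1419 CPM in cKO_1, cKO_2 and cKO_3. The 78 mitochondrial ribosomal protein genes, which serve the ribosomes of mitochondria, lay between, at -0.57 over 76 of them. In none of these lists did a gene pass an adjusted p of 0.05 in either comparison. At an unadjusted p under 0.05 with all libraries there were 2 genes, Mrpl55, lower in cKO at a log2 fold change of -0.71, and Eif4e1b, which was at 0 in WT and at most 0.144 CPM in cKO, about the level of 3 counts. Without WT_2 there were 0. The median log2 fold changes with and without WT_2 were 0.068 and -0.088 for the mitochondrial ribosomal proteins, 0.072 and 0.021 for the initiation factors and -0.00043 and 0.059 for ribosomal RNA processing.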

How the data were processed

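The 6 libraries of tumor-infiltrating Tregs, 3 WT and 3 cKO, were analysed by RNA-Seq. Total RNA was extracted with TRIzol and libraries were made with a SMARTER mRNA kit. Expected counts, 1 value per gene symbol and library, were deposited by the authors without normalization, from reads aligned to GRCm38. Their processing notes list Bowtie2 (2.3.4.3) and RSEM (1.3.1), while the annotation and strand setting are not given in the sources used here. Of the deposited values, 21.6% were not whole, and 32.3% of those of the ribosomal protein genes, so counts were rounded. Such counts divide reads that fit several genes by a model.

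Counts were scaled by TMM and tested over all genes with at least 1 count (15315, and 15302 without WT_2) with edgeR's quasi-likelihood test (edgeR 4.0.16, limma 3.58.1, R 4.3.3), adjusted by Benjamini-Hochberg at 0.05. p-values without the word adjusted are unadjusted edgeR values. Exact permutation tests were two-sided. Ratios to WT_1 and WT_3 used log2 of CPM plus 0.5. Levels per kilobase used the principal transcript of GENCODE vM21, found for all 81 genes. Fits were checked on simulated counts in which 200 genes were changed by 2 on the log2 scale. With 6 libraries 123 of the 200 passed an adjusted p of 0.05, beside 8 unchanged genes. Without WT_2 182 of the 200 passed, beside 36 unchanged genes. Unchanged genes were thus a larger part of the calls without WT_2, so adjusted p-values of that fit are the less strict. Smaller changes, such as those of the ribosomal protein genes, were not simulated.

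The 81 genes and the lists of translation genes and cell type markers were chosen with earlier results of these data known. Named were genes fixed by role, the 3 highest and 3 lowest per kilobase, up to 5 per direction with the smallest p in each comparison, and the 3 most abundant of each other list, a few of which are not reported here. Genes shown for their sequence, their order across libraries or their read sharing were also named after their values were seen. Alternatives were DESeq2 (1.42.0), scaling by library size alone, by median of ratios and by TMM without the ribosomal protein genes, filterByExpr (minimum count 10), a replicate block, and leaving out each library.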

Additional observations from a re-analysis of the deposited data

How the results depend on the processing

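No ribosomal protein gene passed an adjusted p of 0.05 under any alternative tried. With all libraries the median log2 fold change of the 81 genes was 0.32 to 0.43 under DESeq2, other scalings, the stricter filter and the block, and 0.055 to 0.60 when single libraries were left out, the lowest without WT_2, and the ratio of the sums was 1.05 to 1.503. Rps27rt was the only gene higher at an unadjusted p under 0.05, and the count of 1 became 0 to 1 when single libraries were left out, being 0 without cKO_2 and without cKO_3. Without WT_2 the count of 1 became 0 to 4 as further libraries were left out, the 4 being Rps27rt, Rps16, Rps20 and Rps6 without cKO_1 (4.94% of the 81, against 2.35% of all genes), and the count of 0 lower genes became 0 to 1, Rps27l without WT_3 (1.23% of the 81, against 3.54% of all genes). Where a single WT library remained, it was assumed to vary like the cKO libraries. The labels do not say whether equal replicate numbers pair the samples. Correlations of deviations from the group means were 0.114, -0.094 and 0.211 for same-numbered libraries. For the other pairs they ran from -0.280 to 0.161, so these values cannot decide it. With the replicate number as a block, the count of higher ribosomal protein genes was 0 in both comparisons. Without WT_2, cKO_2 was alone in its block, so the block fit drew its fold changes from WT_1, WT_3, cKO_1 and cKO_3 only. Over all genes, 40 were higher and 23 lower at an adjusted p under 0.05 in edgeR in that fit. It leaves little from which to estimate the spread, so these counts are uncertain. Beside the median of -0.092 when WT_2 and cKO_2 were left out, the median of the 81 genes in the block fit without WT_2 was -0.13, with 9 genes positive and 72 negative. In that fit the log2 fold change was -0.085 for Rpl10, -0.12 for Rpl13, -0.23 for Rpl13a, -0.040 for Rpl38, -0.070 for Rpl5, -0.13 for Rpl7, -0.13 for Rplp1, -0.082 for Rplp2, -0.23 for Rps14, -0.020 for Rps19, -0.034 for Rps27, -0.15 for Rps3 and -0.080 for Rpsa. With library size only it was -0.0067 for Rpl10, -0.00045 for Rpl13 and -0.0025 for Rps3 without WT_2, and -0.040 for Rps27l with all libraries.

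Single genes changed sign when libraries were left out. Over these fits the log2 fold changes with all libraries, in which the lowest value of each gene was that without WT_2, ran from -0.016 to 0.54 for Rpl11, -0.041 to 0.52 for Rpl22, -0.019 to 0.44 for Rpl22l1, -0.11 to 0.37 for Rpl7a, -0.11 to 0.76 for Rps12, -0.035 to 0.53 for Rps27a and -0.13 to 0.32 for Rps27l. Without WT_2 they ran from -0.070 to 0.12 for Rpl10, -0.20 to 0.18 for Rpl11, -0.085 to 0.20 for Rpl13, -0.19 to 0.26 for Rpl13a, -0.25 to 0.12 for Rpl22, -0.24 to 0.15 for Rpl22l1, -0.039 to 0.28 for Rpl38, -0.046 to 0.19 for Rpl5, -0.094 to 0.24 for Rpl7, -0.25 to 0.028 for Rpl7a, -0.15 to 0.061 for Rpl7l1, -0.090 to 0.32 for Rplp1, -0.060 to 0.29 for Rplp2, -0.32 to 0.069 for Rps12, -0.20 to 0.28 for Rps14, -0.021 to 0.29 for Rps27, -0.23 to 0.17 for Rps27a, -0.47 to 0.32 for Rps27l, -0.12 to 0.21 for Rps3 and -0.045 to 0.24 for Rpsa. Depth limits Rpl3l only, since the other 80 genes were at 26.4 CPM or more in every library.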
